A study of Homo sapiens with 18 samples.

Results

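Solute carriers are the largest group of membrane transporters in human cells, and 182 genes named for them were followed here in podocytes on surfaces of different shape and under inflammatory conditions. The genes were selected on their name and abundance: a protein-coding gene entered when its symbol began with SLC, a family number, letters and a member number, and when its raw count summed over the 18 libraries was at least 900. SLC7A11, SLC7A5, SLC3A2, SLC2A1, SLC2A3 and SLC16A3 met the count but were left out by name, which leaves 182 of the 375 protein-coding genes with such a symbol, in a table of 58735 genes. Of the 182, 3 match by symbol without being transporters themselves: SLC2A4RG, a regulator of a glucose carrier gene, SLC4A1AP, an adaptor protein, and SLC7A6OS, named for lying opposite SLC7A6. Another 187 fell below the count, 47 of them with no count at all. Just inside the rule lay SLC43A2 with 995 counts, SLC45A1 with 981 and SLC25A35 with 945, and just outside it SLC9A3 with 844 and SLC25A45 with 835.

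The cells were PODO/TERT256 human podocytes, an established line that telomerase keeps dividing, and they grew in 3D on hemispheres of smooth or fractal topography. On each surface they were left as controls, given the cytokines TNF-α and IL-6, or combined with THP-1 macrophages, made from a monocytic line of human leukaemia. RNA was measured by poly-A sequencing in 3 libraries for each of the 6 groups, 18 in all. The labels name no separate cultures, so the p-values measure the spread between these libraries, which may be technical. All groups are 1 cell line, and the series compares how the surface and the inflammatory setting act on it.

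Each solute carrier moves a small set of substrates across a membrane, as a channel-like facilitator, as an exchanger or by coupling to sodium, protons or another ion. They supply cells with amino acids, sugars, metals and nucleosides, remove organic ions, set cell volume and pH, and, in the SLC25 family, carry metabolites across the inner mitochondrial membrane. In the kidney they are best known from the tubule, where they reabsorb what the glomerulus filters, while podocytes form the outer wall of that filter and use carriers mainly for their own supply.

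The libraries held 11488204 to 21264180 counts. Of 10 podocyte markers, NPHS1 (nephrin) had 6 counts over all libraries, whereas CD2AP had 49631, SYNPO 24078 and PODXL 2170, so a defining gene of the slit diaphragm was near 0. The 24 monocyte and macrophage markers summed to 3.38 to 8.19 CPM (counts scaled to a common library total) in the 12 libraries without THP-1 cells, to 50.5 to 58.0 on smooth and to 25.1 to 26.6 on fractal surfaces with them, with 21 and 19 of the 24 detected; C1QB and CD86 were at 0 everywhere. The lower sum on fractal surfaces did not hold for every marker. Over the 3 THP-1 libraries of a surface, LAPTM5 had 717 counts on smooth and 235 on fractal. CD14 had 287 and 296, LST1 18 and 35 and FCGR2A 4 and 9. In fractal THP-1 replicates 1, 2 and 3 LAPTM5 had 93, 123 and 19 counts and CD14 103, 79 and 114. In the same order LST1 had 5, 3 and 27 and FCGR2A 2, 7 and 0, so each of these excesses came largely from 1 library. In bulk RNA, fewer cells of a type and less RNA per cell cannot be told apart. The part of RNA from THP-1 cells in the THP-1 results was not tested. In 2 libraries the mitochondrial share of counts stood apart: smooth cytokines replicate 2 had 8.09% and fractal THP-1 replicate 3, also the smallest library, 0.847%, against 3.86 to 4.63% in the other 16.

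All 182 genes passed the filter on low counts. Levels below are CPM with TMM scaling, a correction for differences in composition. Without that scaling the median over the genes was 24.1 CPM, against 15 for all 16129 genes tested. Per kilobase of exon (RPKM), the most abundant was SLC25A6, an ADP/ATP exchanger of mitochondria, at 179.9. It was followed by SLC7A2, a carrier of arginine and other cationic amino acids, at 122 RPKM, by the ADP/ATP exchanger SLC25A5 at 96.3 and by the neutral amino acid carrier SLC38A2 at 93. The range ran down to 0.312 RPKM, with a median of 4.82, and 5 genes held 26.6% of all counts on the 182. Some values are shared with other genes. Exons of 67 of the genes overlap a gene on the other strand, and the libraries did not keep the strand. Exons of 16 of the genes overlap a coding gene on their own strand, and a gene may be in both counts. For 3 genes the count rule was met only with their highest group: SLC1A3, SLC47A1 and SLC25A35 would total 461, 449 and 726 counts without it, so a difference between groups was built into their choice.

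The 182 genes together took up a larger share of the RNA in every treated group than in controls. They held 0.976 to 0.978% of counts in smooth controls and 0.976 to 0.991% in fractal controls. Cytokines brought this to 1.11 to 1.16% on smooth and 1.08 to 1.11% on fractal surfaces, and THP-1 cells to 1.04 to 1.07% and 1.15 to 1.18%. No treated library overlapped a control library of either surface. The sum is weighted to abundant genes, 5 of which held 26.6% of all counts on the 182. It does not describe each gene. On smooth surfaces under cytokines SLC7A2 went from 729, 726 and 746 to 1745, 1712 and 1684 CPM, while 14 genes were called lower. The share of the neurotransmitter and osmolyte class, mostly the taurine carrier SLC6A6, went from 0.0229 to 0.0281% in the control libraries to 0.104 to 0.122% on fractal surfaces with THP-1 cells.

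Most of the genes differed somewhere among the 6 groups. The test was edgeR's quasi-likelihood F-test, with p-values adjusted by Benjamini-Hochberg over all 16129 genes and a threshold of 0.05. It called 139 of the 182, or 76.4%, where 59.1% of all genes tested were called. Here and below, the shares of all genes are not matched for abundance. The 182 were chosen on a minimum count and had a higher median, 24.1 against 15 CPM without TMM scaling. The part of abundance in the shares was not tested. Cytokines on smooth surfaces raised 44 genes (24.2%, against 13.2% of all genes) and lowered 14 (7.69%, against 12.4%). On fractal surfaces they raised 43 (23.6%, against 13% of all genes) and lowered 12 (6.59%, against 12.9%). The genes called under cytokines were thus mostly higher, and those of the whole table were split about evenly.

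THP-1 cells changed more of the genes. On smooth surfaces 50 rose (27.5%, against 17.3% of all genes) and 26 fell (14.3%, against 17.7%). On fractal surfaces 62 rose (34.1%, against 25% of all genes) and 43 fell (23.6%, against 25.5%). Set against cytokines directly, THP-1 cells gave 27 higher (against 10.6% of all genes) and 42 lower (against 11.8%) on smooth surfaces. On fractal surfaces they gave 36 higher (against 15.4%) and 39 lower (against 20.5%). The median log2 fold change over the 182 genes was 0.143 for cytokines on smooth surfaces, where that of all genes was 0.007, and 0.085 for THP-1 cells on fractal surfaces, where that of all genes was 0.041.

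Fewer genes were called between the surfaces than between treatments and controls. In controls themselves, 3 genes were higher on fractal (against 0.651% of all genes) and 1 was lower (against 1.12%), and these 4 calls fell to 0 to 2 when any control library was left out. The same count was 8 with no filter on low counts, 20 without the 2 libraries that stood apart and 43 with the 2 control groups fitted alone; the cause was not tested. Under cytokines 11 were higher (against 1.72% of all genes) and 12 lower (against 2.74%), and with THP-1 cells 31 were higher (against 8.25%) and 22 lower (against 11.7%). The effect of cytokines differed between the surfaces, by the interaction term of the same model, in 10 genes. The log2 effect on fractal minus that on smooth was positive in 6 (against 1.28% of all genes) and negative in 4 (against 1.43%), and a positive value can be a fall on smooth surfaces that was not called on fractal. The effect of THP-1 cells differed in 30, with a positive value in 20 (against 5.35%) and a negative one in 10 (against 7.88%). Without smooth control replicate 1 the 2 interaction counts were 6 and 19. Without fractal THP-1 replicate 3 the THP-1 count was 47, and without both libraries that stood apart the 2 counts were 28 and 54.

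**Figure D1:**
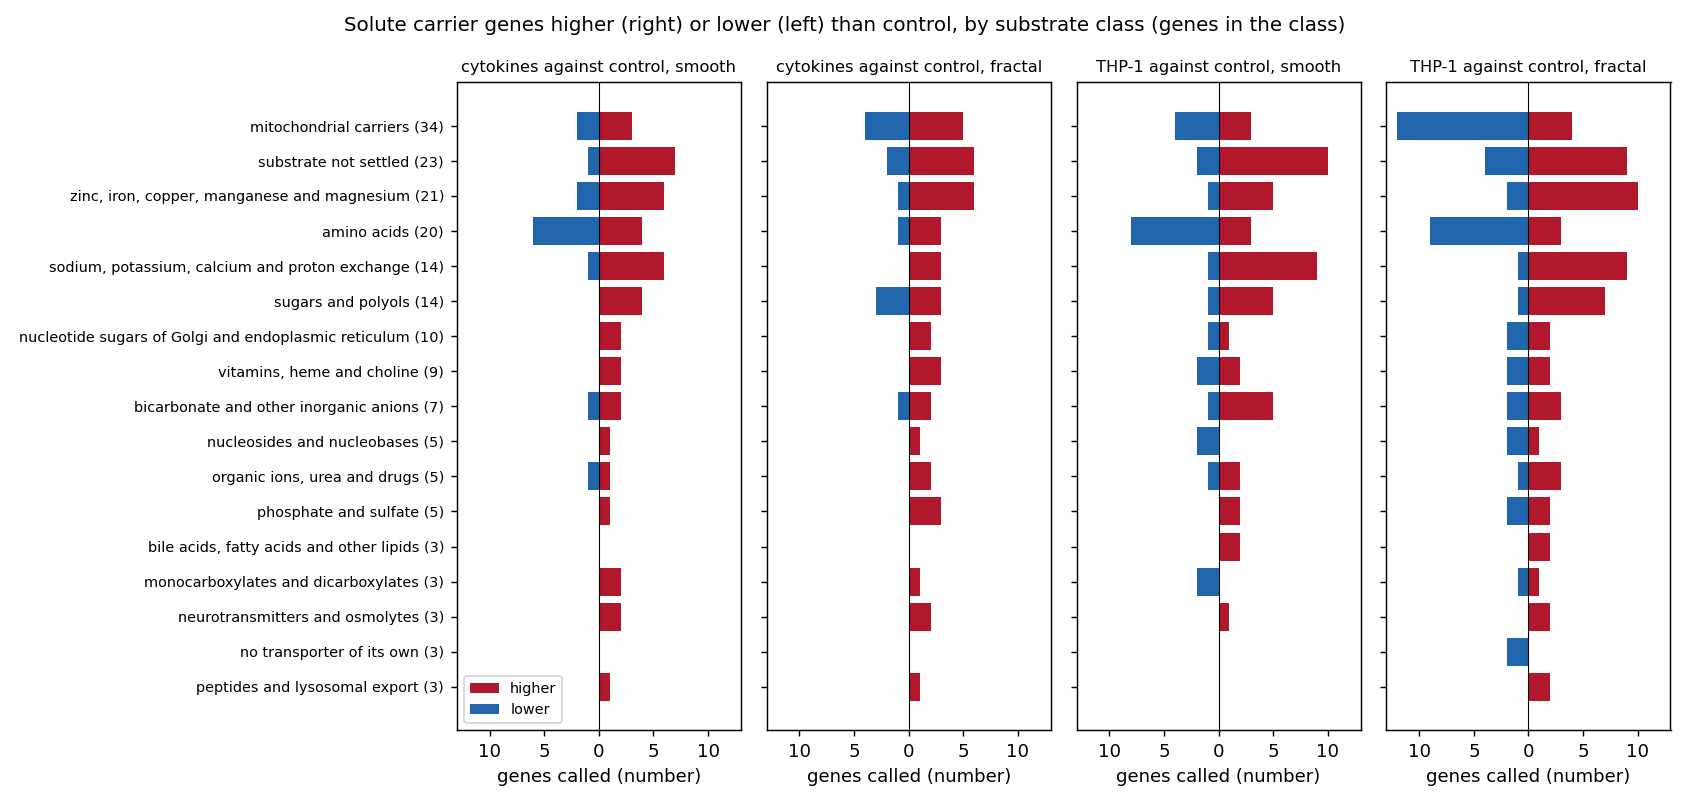
Number of solute carrier genes called higher (red, right) or lower (blue, left) than the control on the same surface, by substrate class, with the number of genes of the class in brackets; each panel is 1 of the 4 treatment comparisons. Of the amino acid carriers, 8 of 20 were lower with THP-1 cells on smooth and 9 of 20 on fractal, and 3 were higher on each, while carriers that exchange sodium, potassium, calcium and protons were mostly higher, 9 of 14 on both.

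The counts by substrate class that follow can be read against the shares of all genes called. For cytokines 13.2% of all genes were higher and 12.4% lower on smooth, and 13% and 12.9% on fractal. For THP-1 cells 17.3% were higher and 17.7% lower on smooth, and 25% and 25.5% on fractal.

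Among amino acid carriers THP-1 cells lowered more genes than they raised on both surfaces: 8 fell and 3 rose of 20 on smooth, and 9 fell and 3 rose on fractal. The same held for mitochondrial carriers and for the class of nucleosides and nucleobases, given further on. Those that fell on both surfaces include the carriers of glutamine, serine, alanine, glycine and cationic amino acids described next. The 2 that rose on both were the glutamate and aspartate carriers SLC1A1 and SLC1A3. Of these, SLC1A3 met the count rule only through its highest group. Under cytokines 6 fell and 4 rose on smooth surfaces, and 1 fell and 3 rose on fractal.

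SLC7A1, which takes up arginine, lysine and ornithine and lies at chr13:29509410-29595688 (GRCh38), had 253, 258 and 260.1 CPM in the smooth controls and 227, 225 and 222 CPM in the fractal controls. The THP-1 libraries had 105, 97.9 and 97 CPM on smooth and 119, 122 and 99 CPM on fractal surfaces. Every library with THP-1 cells lay below every other library. The log2 fold change was -1.36 ± 0.09 (standard error; adjusted p = 2.85e-11) on smooth and -0.99 ± 0.09 (adjusted p = 2.95e-09) on fractal surfaces.

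SLC1A5, the main sodium-coupled glutamine carrier, had 257, 259 and 276 CPM in smooth controls and 119.5, 109 and 109 CPM in smooth libraries with THP-1 cells. On fractal surfaces the values were 231, 224 and 223 CPM in controls and 114, 96.8 and 134 CPM with THP-1 cells. The groups did not overlap on either surface, with log2 fold changes of -1.23 ± 0.12 (adjusted p = 2.6e-08) and -0.98 ± 0.12 (adjusted p = 3.45e-07). Under cytokines SLC1A5 fell on smooth surfaces, to 167, 209 and 140.5 CPM (-0.62 ± 0.12, adjusted p = 0.000331), and had 288, 239 and 232 CPM on fractal surfaces, where it did not pass the test (0.16 ± 0.12). The interaction was called (0.78 ± 0.17, adjusted p = 0.00844).

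SLC1A4, a carrier of serine, alanine and cysteine, fell further. It had 62.1, 58.8 and 58.8 CPM in smooth controls and 40.9, 44.8 and 49.7 CPM in fractal controls, and 14.7, 15.2 and 13.3 CPM and 12.1, 11.5 and 12.5 CPM with THP-1 cells. The fall was -2.05 ± 0.15 (adjusted p = 1.77e-10) on smooth and -1.91 ± 0.16 (adjusted p = 3.62e-10) on fractal surfaces, with no overlap. The glycine carrier SLC6A9 had 19.3, 20.9 and 24.3 CPM in smooth controls and 3.66, 5.18 and 5.35 CPM with THP-1 cells (-2.18 ± 0.23, adjusted p = 1.79e-07). On fractal surfaces it fell from a mean of 14.8 ± 1.24 to 6.25 ± 2.01 CPM (SD, n = 3; -1.21 ± 0.23) with THP-1 cells and rose to 32.4 ± 5.25 CPM (1.13 ± 0.21, adjusted p = 0.000278) under cytokines. Its exons overlap CCDC24 on the other strand.

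The related glutamine and alanine carriers SLC38A1 and SLC38A2 were among the more abundant genes and fell by less. SLC38A1 went from 386 ± 7.01 to 191 ± 11 CPM on smooth surfaces (-1.02 ± 0.10) and from 312 ± 5.45 to 217 ± 28.6 CPM on fractal surfaces (-0.52 ± 0.10; SD, n = 3). SLC38A2 went from 737 ± 7.17 to 458 ± 29.6 CPM (-0.69 ± 0.10) and from 724 ± 20.6 to 435 ± 53 CPM (-0.73 ± 0.10). Under cytokines on smooth surfaces SLC38A2 fell to 588, 639 and 446 CPM (-0.40 ± 0.10, adjusted p = 0.00445), and on fractal surfaces it had 797, 717 and 801 CPM (0.09 ± 0.10, which did not pass the test).

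Several of these carriers are textbook targets of the transcription factor ATF4, which binds a C/EBP-ATF response element in amino acid starvation. The letters TGATGNAA were searched on both strands from 250 bases before to 50 after the start of each gene, in RefSeq sequence of GRCh38.p14, which had an entry for 150 of the 182 genes. They were found in 5 of the 150 (3.33%), where 3.67% of 27305 promoters of the same length held them, and 2 of the 5 are SLC7A1 and SLC38A1. The 30 bases around each match are shown because SLC7A1 and SLC38A1 fell on both surfaces with THP-1 cells while SLC1A3 rose. Capitals mark the match, and in SLC25A11 it lies on the opposite strand.
SLC7A1: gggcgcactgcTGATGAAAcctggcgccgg
SLC38A1: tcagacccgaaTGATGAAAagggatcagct
SLC1A3: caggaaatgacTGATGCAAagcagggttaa
SLC25A11: ttctcgcacgcTTCCATCAagctcctcctt
SLC39A11: cgagagagtggcagcgggggcTGATGGAAg

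These windows lie at chr13:29595663-29595692 (minus strand) for SLC7A1, chr12:46266502-46266531 (minus) for SLC38A1, chr5:36596357-36596386 (plus) for SLC1A3, chr17:4940099-4940128 (minus) for SLC25A11 and chr17:73092639-73092668 (minus) for SLC39A11. SLC1A4, SLC1A5, SLC38A2 and SLC6A9, which also fell, had no such letters in this window.

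Against these, SLC1A1 and SLC1A3, which take up glutamate and aspartate, rose with THP-1 cells. SLC1A1 had 78.1, 70.6 and 75.2 CPM in smooth controls and 72.9, 71.3 and 73.3 CPM in fractal controls. With THP-1 cells it had 191, 196 and 177 CPM and 171, 165 and 174 CPM. All 6 THP-1 libraries lay above the other 12, and the log2 fold changes were 1.33 ± 0.07 (adjusted p = 4.7e-13) and 1.23 ± 0.07 (adjusted p = 4.74e-13).

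SLC1A3 was close to absent without THP-1 cells, at 0.345 to 0.587 CPM in smooth and 0.287 to 0.516 CPM in fractal controls. With them it reached 14.5, 11.3 and 14.6 CPM on smooth and 8.50, 6.97 and 3.62 CPM on fractal surfaces (4.86 ± 0.40 and 4.08 ± 0.41). SLC1A3 met the count rule only through its smooth THP-1 libraries, so a difference between groups was built into its choice. It was lower on fractal than on smooth surfaces with THP-1 cells (log2 fold change -1.06 ± 0.29, adjusted p = 0.0113), a call that was lost without smooth THP-1 replicate 1 (0.0508), adjusted p in brackets. The sum of the macrophage markers moved with SLC1A3, at 50.5 to 58.0 CPM on smooth and 25.1 to 26.6 CPM on fractal surfaces. Not every marker was lower on fractal, and their part in the result was not tested.

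**Figure D2:**
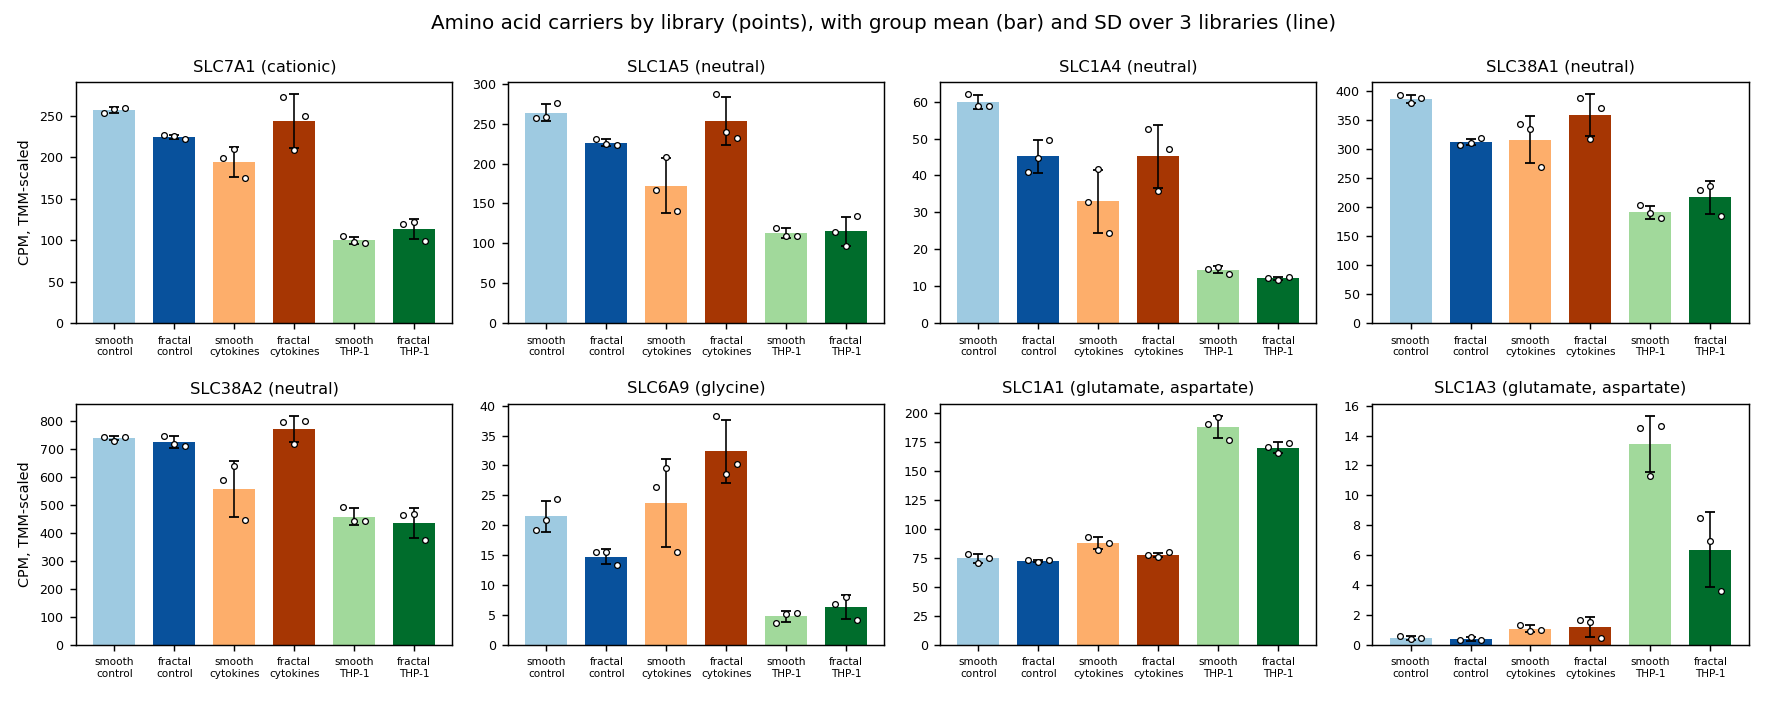
Levels of 8 amino acid carriers in CPM with TMM scaling (vertical axis, from 0) in the 6 groups; points are libraries, bars group means and lines the SD over 3 libraries. SLC7A1, SLC1A5, SLC1A4, SLC38A1, SLC38A2 and SLC6A9 are lowest in the 2 THP-1 groups, where SLC1A1 and SLC1A3 are highest.

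SLC7A2, the other carrier of cationic amino acids, behaved unlike SLC7A1: it rose with cytokines on smooth surfaces and with THP-1 cells on fractal surfaces. It had 729, 726 and 746 CPM in smooth controls and 1745, 1712 and 1684 CPM under cytokines. On fractal surfaces the values were 694, 695 and 720.5 CPM in controls and 764, 693 and 807 CPM under cytokines. All 3 smooth cytokine libraries lay above the other 15, with a log2 fold change of 1.22 ± 0.08 (adjusted p = 3.37e-11), while the fractal value of 0.10 ± 0.08 did not pass the test (adjusted p = 0.404). The interaction was -1.12 ± 0.12 (adjusted p = 8.16e-07).

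With THP-1 cells the order of the surfaces was the other way round. SLC7A2 had 724, 628 and 648 CPM on smooth surfaces, which did not pass the test against control (-0.14 ± 0.08), and 1318, 1218 and 1063 CPM on fractal surfaces (0.77 ± 0.08, adjusted p = 2.36e-08). The 3 fractal libraries lay above all control and smooth THP-1 libraries, and the interaction was 0.91 ± 0.12 (adjusted p = 4.67e-06). The lowest of the 3 was replicate 3, the library with the low mitochondrial share.

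SLC7A7, which pairs with SLC3A2 to release cationic amino acids and is abundant in macrophages, fell under cytokines. It had 34.4, 31.4 and 30.6 CPM in smooth controls and 16.7, 18.8 and 16.3 CPM under cytokines (-0.89 ± 0.11, adjusted p = 3.76e-07). On fractal surfaces it had 26.8, 27.3 and 30.1 CPM in controls and 12.5, 12.6 and 12.6 CPM under cytokines (-1.16 ± 0.11, adjusted p = 1.16e-08). The groups did not overlap. With THP-1 cells it was not higher than in controls, at 19.7 to 22.9 CPM on smooth, where it fell (-0.57 ± 0.10), and 23.6 to 24.3 CPM on fractal surfaces.

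Carriers of zinc, iron, copper, manganese and magnesium were called higher more often than lower, though in 3 of the 4 treatment comparisons most were not called: of 21, cytokines raised 6 and lowered 2 on smooth and raised 6 and lowered 1 on fractal surfaces, and THP-1 cells raised 5 and lowered 1 on smooth and raised 10 and lowered 2 on fractal. SLC39A14, which brings zinc, iron and manganese into the cell and is known as an IL-6 responsive gene of the liver, had the largest cytokine effect of the class on both surfaces. It had 208, 190.2 and 202 CPM in smooth controls and 565, 457 and 550.5 CPM under cytokines. The fractal libraries had 191, 197 and 198 CPM in controls and 332, 319 and 347 CPM under cytokines. All cytokine libraries lay above all others, and the 3 smooth ones above the 3 fractal ones. The log2 fold changes were 1.39 ± 0.08 (adjusted p = 9.99e-13) and 0.77 ± 0.08 (adjusted p = 4.12e-08), and they differed by -0.62 ± 0.11 (adjusted p = 0.0012). With THP-1 cells SLC39A14 rose on fractal surfaces, to 274, 257 and 268 CPM (0.45 ± 0.08), and had 199, 198 and 188 CPM on smooth surfaces (-0.04 ± 0.08, not past the test), an interaction of 0.48 ± 0.11 (adjusted p = 0.00353).

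SLC11A2, a proton-coupled iron carrier of the plasma membrane and endosomes, was also highest by group mean in smooth cytokine libraries. Unlike SLC39A14, it was not called higher under cytokines on fractal surfaces. Its level was 64.5, 65.6 and 69.9 CPM in smooth controls and 114, 98.4 and 120.1 CPM under cytokines (0.73 ± 0.10, adjusted p = 6.98e-06). The fractal values were 58, 58.8 and 63.6 CPM in controls, 68.8, 65.6 and 59.4 CPM under cytokines (0.10 ± 0.11, not past the test) and 102, 95.4 and 71.1 CPM with THP-1 cells (0.58 ± 0.10, adjusted p = 5.72e-05). Under cytokines the fractal libraries lay below the smooth ones with no overlap (-0.78 ± 0.10, adjusted p = 1.72e-05).

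SLC25A37, mitoferrin-1, brings iron into mitochondria and belongs to the mitochondrial carriers. It had 102, 98.4 and 97 CPM in smooth controls and 312, 300.1 and 221 CPM under cytokines (1.49 ± 0.11, adjusted p = 1.24e-10). On fractal surfaces it went from 90.9, 83.2 and 80.3 to 226, 259 and 252 CPM (1.54 ± 0.11, adjusted p = 1.2e-10). Its cytokine effect on fractal surfaces was not called different from that on smooth (0.05 ± 0.15, adjusted p = 0.945). Cells with THP-1 macrophages had 76.3, 83.3 and 93.4 CPM on smooth and 138, 148 and 121 CPM on fractal surfaces, higher than control only on the latter (0.68 ± 0.11), and this difference was called (0.91 ± 0.15, adjusted p = 0.000144).

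The magnesium carrier SLC41A2 rose in both settings on smooth surfaces, from 13.9, 14.2 and 14.9 CPM to 30.02, 32.8 and 33.9 CPM under cytokines (1.17 ± 0.13) and 36.7, 38.1 and 27.5 CPM with THP-1 cells (1.25 ± 0.13). On fractal surfaces it rose from 13.3, 13.7 and 11.4 to 28.4, 28.6 and 25.4 CPM with THP-1 cells (1.10 ± 0.13), and under cytokines it had 16.7, 17.1 and 21.2 CPM, below smooth (-0.82 ± 0.13, adjusted p = 0.000122). Its cytokine effects were not called different between the surfaces. SLC39A8, the close relative of SLC39A14 that carries zinc and manganese, rose with THP-1 cells and not with cytokines. It had 19.1 ± 2.47 and 12.8 ± 0.69 CPM in smooth and fractal controls and 34.8 ± 3.06 and 34.9 ± 4.22 CPM with THP-1 cells (SD, n = 3; 0.86 ± 0.14 and 1.45 ± 0.14). Of the metal carriers that fell, SLC39A10, a zinc importer, went from 91.3 ± 2.05 to 69.5 ± 5.60 CPM under cytokines on smooth surfaces (-0.39 ± 0.09) and from 105 ± 0.761 to 85.5 ± 1.45 CPM on fractal surfaces (-0.30 ± 0.09).

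Among 14 carriers of sugars and polyols, THP-1 cells raised 5 and lowered 1 on smooth and raised 7 and lowered 1 on fractal surfaces, and cytokines raised 4 and lowered none on smooth and raised 3 and lowered 3 on fractal. SLC2A6, a hexose carrier of lysosomes that is abundant in activated macrophages, lies at chr9:133471095-133479137. It had 15.3, 15.9 and 14.6 CPM in smooth controls, 24.6, 28.1 and 38.3 CPM under cytokines and 41.8, 42 and 44.8 CPM with THP-1 cells. The fractal libraries had 12.3, 14.5 and 12.4 CPM in controls, 10.6, 8.10 and 9.66 CPM under cytokines and 26.3, 22.6 and 30.9 CPM with THP-1 cells. All smooth treated libraries lay above all controls, whereas the fractal cytokine libraries lay below them.

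On smooth surfaces the log2 fold change of SLC2A6 was 0.99 ± 0.15 with cytokines (adjusted p = 1.1e-05) and 1.49 ± 0.15 with THP-1 cells (adjusted p = 1.39e-08). On fractal surfaces it was 1.02 ± 0.15 with THP-1 cells (adjusted p = 2.8e-06). The fall under cytokines there, -0.47 ± 0.16 (adjusted p = 0.0268), was lost without fractal control replicate 2 (0.131) and fractal cytokines replicate 2 (0.104), adjusted p in brackets, while the difference of the cytokine effects was called under all the alternatives tried (-1.46 ± 0.21, adjusted p = 0.000124). With THP-1 cells it was lower on fractal than on smooth surfaces (-0.69 ± 0.14), in the same direction as the summed macrophage markers. The part of these markers in this was not tested.

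SLC2A12, a glucose carrier, and SLC2A10, a carrier of glucose and dehydroascorbate, rose under cytokines. SLC2A12 went from 2.06, 1.26 and 1.59 to 5.42, 5.66 and 4.91 CPM on smooth surfaces (1.70 ± 0.29) and from 1.89, 1.69 and 1.69 to 5.32, 7.12 and 6.42 CPM on fractal surfaces (1.84 ± 0.28); its exons overlap TBPL1 on the other strand. SLC2A10 went from 32 ± 2.03 to 54.3 ± 3.31 CPM on smooth surfaces (SD, n = 3; 0.76 ± 0.09). SLC2A11 rose with THP-1 cells, from 7.47 ± 0.526 to 15 ± 0.542 CPM on smooth (1.00 ± 0.17) and from 6.03 ± 1.02 to 16.9 ± 2.76 CPM on fractal surfaces (1.48 ± 0.18), and its exons overlap a coding gene on its own strand, AP000350.4.

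SLC5A3, which takes up myo-inositol as an osmolyte, was higher on fractal surfaces under cytokines. It had 207, 144 and 168 CPM on smooth and 278, 284 and 301 CPM on fractal surfaces, with no overlap and a log2 fold change of 0.73 ± 0.09 (adjusted p = 7.07e-06). The controls had 159, 158 and 153 and 202, 200.3 and 214 CPM, again without overlap, but that call (0.39, adjusted p = 0.0243) was lost when any of the 6 control libraries was left out, with the adjusted p in brackets for smooth control replicate 1 (0.0839), smooth control replicate 2 (0.102), smooth control replicate 3 (0.127), fractal control replicate 1 (0.0759), fractal control replicate 2 (0.0739) and fractal control replicate 3 (0.141). SLC5A3 shares exon sequence with MRPS6, and reads of the shared exons cannot be assigned to either.

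**Figure D3:**
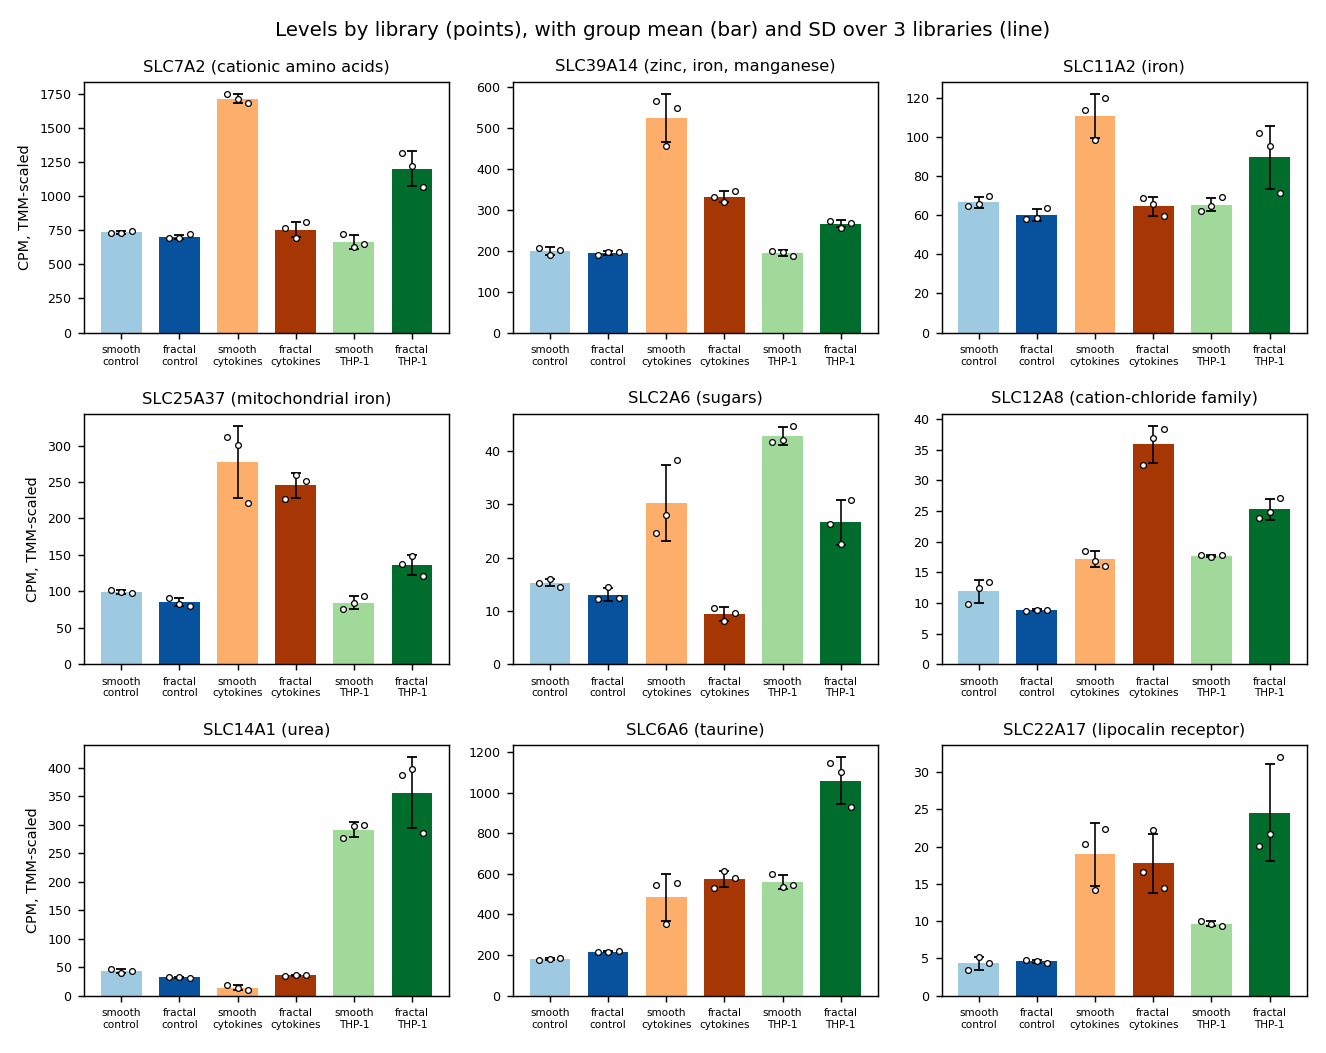
Levels of 9 solute carrier genes in CPM with TMM scaling (vertical axis, from 0) in the 6 groups; points are libraries, bars group means and lines the SD over 3 libraries. SLC7A2, SLC39A14 and SLC11A2 are highest in smooth cytokine libraries, SLC12A8 in fractal cytokine libraries, SLC2A6 in smooth THP-1 libraries, and SLC14A1, SLC6A6 and SLC22A17 in fractal THP-1 libraries by group mean.

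Exchangers of sodium, potassium, calcium and protons rose with THP-1 cells: 9 of 14 were higher and 1 was lower than control on each surface. Cytokines raised 6 and lowered 1 on smooth and raised 3 on fractal surfaces. SLC12A2, which brings sodium, potassium and chloride into the cell and restores cell volume, had 35.3, 33 and 33.7 CPM in smooth controls and 62.3, 59.8 and 60.2 CPM with THP-1 cells (0.84 ± 0.09, adjusted p = 9.71e-08). The fractal libraries had 28.7, 30.5 and 29.1 and 48.4, 48.6 and 53 CPM (0.76 ± 0.09, adjusted p = 2.11e-07). SLC12A4, which carries potassium and chloride out of the cell, rose as well (0.49 ± 0.10 and 0.57 ± 0.10), with exons that overlap LCAT. SLC8B1, the sodium-calcium exchanger of mitochondria, rose by 0.79 ± 0.11 and 0.93 ± 0.11, and SLC9A7, a proton exchanger of the Golgi, by 0.36 ± 0.09 and 0.72 ± 0.09. The 1 that fell on both surfaces was SLC9B2, a sodium-proton exchanger, from 14 ± 1.57 to 7.40 ± 0.646 CPM (-0.92 ± 0.15) and from 13 ± 1.17 to 6.59 ± 0.538 CPM (-0.97 ± 0.15; SD, n = 3).

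SLC12A8, a member of the cation-chloride family, was raised most on fractal surfaces. It had 9.81, 12.5 and 13.5 CPM in smooth controls and 18.5, 16.9 and 16 CPM under cytokines (0.53 ± 0.12, adjusted p = 0.00222). In fractal controls it had 8.60, 8.92 and 8.78 CPM and under cytokines 32.6, 36.9 and 38.3 CPM (2.03 ± 0.12, adjusted p = 7.72e-12). The 3 fractal cytokine libraries were the highest of the 18, and the interaction was 1.51 ± 0.17 (adjusted p = 5.52e-06). The THP-1 libraries had 17.8, 17.5 and 17.8 CPM on smooth and 23.8, 24.9 and 27.1 CPM on fractal surfaces, with an interaction of 0.95 ± 0.18 (adjusted p = 0.000492).

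SLC8A1, the sodium-calcium exchanger of the plasma membrane, was higher on fractal surfaces with THP-1 cells, at 44.8, 40.9 and 42.3 CPM against 28.2, 26.2 and 24.9 CPM on smooth (0.69 ± 0.10, adjusted p = 1.58e-05), while the controls had 29.8 to 31.2 and 27.9 to 31.6 CPM. Its exons overlap an antisense gene.

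Of 7 carriers of bicarbonate and other inorganic anions, SLC4A7 fell and SLC26A6 rose in all 4 treatment comparisons. SLC4A7, which brings sodium and bicarbonate into the cell, had 145, 139 and 150.1 CPM in smooth and 144, 155 and 148 CPM in fractal controls. Under cytokines it had 85.1, 85.9 and 81.2 CPM on smooth and 106, 83.4 and 100.1 CPM on fractal surfaces. With THP-1 cells it had 90.7, 86.2 and 75.4 and 92, 78.8 and 87.4 CPM. All 12 treated libraries lay below all 6 controls, with log2 fold changes between -0.79 and -0.63. SLC26A6, which exchanges chloride for oxalate, bicarbonate and other anions, had 14.6 to 17.7 and 14 to 16.9 CPM in smooth and fractal controls. It had 30.1 to 39.1 and 31.1 to 33.3 CPM under cytokines and 30.2 to 41.4 and 31.7 to 38.7 CPM with THP-1 cells. The treated libraries all lay above the controls, with log2 fold changes of 1.09 ± 0.13 to 1.25 ± 0.13.

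SLC4A8, a sodium-driven chloride-bicarbonate exchanger, was lower on fractal than on smooth surfaces with THP-1 cells, at 4.10, 5.43 and 4.21 against 10.7, 7.63 and 11.5 CPM (-1.11 ± 0.20, adjusted p = 0.00021). The anion exchanger SLC4A2 rose in all 4 treatment comparisons, by 0.44 ± 0.10 and 0.67 ± 0.10 with cytokines and by 0.56 ± 0.10 and 0.47 ± 0.10 with THP-1 cells, each pair given for smooth and then fractal.

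The urea transporter SLC14A1, at chr18:45687025-45752520, had the largest THP-1 effect of the 182 genes after SLC1A3 and SLC47A1. It had 45.9, 39.1 and 43.5 CPM in smooth controls and 32.6, 32 and 31.8 CPM in fractal controls. Cells with THP-1 macrophages had 276, 298 and 299 CPM on smooth and 387, 397 and 285 CPM on fractal surfaces. The lowest THP-1 library lay several-fold above the highest of the other 12, and the log2 fold changes were 2.77 ± 0.15 (adjusted p = 6.91e-12) and 3.47 ± 0.15 (adjusted p = 8.02e-14).

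Cytokines lowered SLC14A1 on smooth surfaces. It had 18.4, 13.6 and 9.82 CPM on smooth surfaces (-1.62 ± 0.15, adjusted p = 8.08e-08) and 33.8, 35.5 and 36.9 CPM on fractal surfaces (0.14 ± 0.15, not past the test). The smooth libraries lay below all 15 others, and the interaction was 1.76 ± 0.21 (adjusted p = 2.95e-05).

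SLC47A1, which exports organic cations and drugs in exchange for protons, was near absent outside the THP-1 groups. It had at most 0.46 to 1.16 CPM in smooth controls, 0.188 to 0.516 CPM in fractal controls, 0 to 0.71 CPM in smooth and 0.381 to 0.731 CPM in fractal cytokine libraries. The THP-1 libraries had 6.22, 6.32 and 7.69 CPM on smooth and 12.2, 12.7 and 11.8 CPM on fractal surfaces (3.03 ± 0.40 and 5.13 ± 0.44). The summed macrophage markers rose in the same groups but were lower on fractal than on smooth surfaces. Their part in the result was not tested. SLC47A1 is also 1 of the 3 genes that met the count rule only through its highest group.

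SLC22A3, a carrier of organic cations and monoamines, rose with cytokines on fractal surfaces and fell with THP-1 cells on both. It had 9.40, 9.67 and 9.71 CPM in fractal controls and 17.1, 22.8 and 21 CPM under cytokines (1.08 ± 0.20, adjusted p = 0.000172). On smooth surfaces it had 6.58, 5.81 and 6.88 and 10.7, 9.47 and 5.95 CPM, a change that did not pass the test. The effects of cytokines on SLC22A3 were not called different between the surfaces. The THP-1 libraries had 2.03, 3.30 and 2.04 CPM on smooth and 5.10, 3.84 and 3.54 CPM on fractal surfaces (-1.38 ± 0.23 and -1.19 ± 0.22). Under cytokines the fractal libraries lay above the smooth ones (1.23 ± 0.20, adjusted p = 0.000212). SLC22A5, the carnitine carrier, rose with THP-1 cells on fractal surfaces, from 10.8 ± 1.65 to 16.6 ± 1.56 CPM (SD, n = 3; 0.62 ± 0.15).

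The taurine carrier SLC6A6, which cells use to hold osmotic volume, rose in all 4 treatment comparisons and most with THP-1 cells on fractal surfaces. It had 174, 179 and 188 CPM in smooth and 215, 216 and 219 CPM in fractal controls. Under cytokines it had 546, 351 and 554 CPM on smooth and 532, 613 and 581 CPM on fractal surfaces (1.42 ± 0.12 and 1.41 ± 0.12). The lowest smooth cytokine value was replicate 2, the library with the high mitochondrial share.

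With THP-1 cells SLC6A6 had 601, 533 and 545 CPM on smooth and 1147, 1102 and 929 CPM on fractal surfaces. The log2 fold changes were 1.64 ± 0.12 (adjusted p = 4.11e-10) and 2.29 ± 0.13 (adjusted p = 5.88e-13), and every fractal library lay above every smooth one (0.92 ± 0.12, adjusted p = 5.41e-06). The exons of SLC6A6 overlap GRIP2 on the other strand. SLC6A8, the creatine carrier, rose under cytokines on both surfaces, from 52.3 ± 1.11 to 71 ± 4.16 CPM (0.44 ± 0.09) and from 57.6 ± 3.28 to 82.3 ± 9.82 CPM (0.51 ± 0.09; SD, n = 3).

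Phosphate and sulfate carriers differed among themselves. SLC26A2, which supplies sulfate for the sulfation of matrix proteoglycans, rose with cytokines, from 78.8, 73.5 and 75.8 to 165, 124 and 189 CPM on smooth (1.07 ± 0.12, adjusted p = 2.16e-07) and from 89.2, 88.2 and 88.3 to 145, 133 and 154 CPM on fractal surfaces (0.70 ± 0.12, adjusted p = 6.95e-05). With THP-1 cells it fell on fractal surfaces, to 74.2, 63.2 and 53.4 CPM (-0.47 ± 0.12), and had 80.7, 74.2 and 71.6 CPM on smooth (-0.01 ± 0.12, not past the test). The THP-1 effects on SLC26A2 were not called different between the surfaces. Its exons overlap TIGD6 on the other strand.

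SLC20A1, the main sodium-phosphate carrier of most cells, had 406, 405 and 372 CPM with THP-1 cells on smooth and 289, 293 and 316 CPM on fractal surfaces (-0.40 ± 0.07, adjusted p = 0.000186). Under cytokines the order was the other way, 317, 334 and 295 CPM on smooth and 444, 420.1 and 449.6 CPM on fractal surfaces (0.47 ± 0.07, adjusted p = 6.52e-05). Neither pair overlapped. Against control it fell with THP-1 cells on fractal surfaces (-0.46 ± 0.07), and the THP-1 effects differed between the surfaces (-0.65 ± 0.10, adjusted p = 5.35e-05). SLC26A11, an anion carrier, rose under cytokines on fractal surfaces, from 10.9 ± 0.418 to 21.6 ± 1.72 CPM (SD, n = 3; 0.99 ± 0.15); its exons overlap SGSH on the other strand.

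SLC29A1, through which adenosine and other nucleosides equilibrate across the plasma membrane, fell with THP-1 cells on both surfaces and further on fractal. It had 59, 54.1 and 57.6 CPM in fractal controls and 33.9, 29.2 and 24.9 CPM with THP-1 cells (-0.95 ± 0.11, adjusted p = 1.08e-07). On smooth surfaces it had 47.4, 52.9 and 57.3 CPM in controls and 41.1, 43.5 and 40.6 CPM with THP-1 cells (-0.33 ± 0.11, adjusted p = 0.0211). Controls and THP-1 libraries did not overlap on either surface, and the effects differed by -0.62 ± 0.16 (adjusted p = 0.00812). The call on smooth surfaces was lost without smooth control replicate 2 (0.0561), smooth control replicate 3 (0.109), smooth THP-1 replicate 1 (0.0601) and smooth THP-1 replicate 3 (0.07) in turn, adjusted p in brackets. The class of nucleosides and nucleobases has 5 genes, among them SLC17A9 and SLC35B1, which carry nucleotides. Of these 5, THP-1 cells lowered 2 on smooth, and raised 1 and lowered 2 on fractal surfaces. The nucleobase carrier SLC43A3 rose with cytokines on smooth surfaces, from 8.99, 8.51 and 9.20 to 14.6, 19.7 and 19.1 CPM (1.00 ± 0.19, adjusted p = 0.000197), and with THP-1 cells on fractal surfaces, from 7.74, 7.32 and 5.70 to 17.6, 14.8 and 24.4 CPM (1.44 ± 0.19, adjusted p = 6.1e-07). Its exons overlap a coding gene on the same strand, AP000781.2.

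The monocarboxylate carriers, which move lactate, pyruvate and ketone bodies with protons, went different ways. SLC16A1 fell with THP-1 cells, from 163, 163 and 165 to 91.9, 87 and 83.2 CPM on smooth (-0.91 ± 0.08, adjusted p = 4.52e-09) and from 148, 162 and 151 to 95.9, 99.3 and 117 CPM on fractal surfaces (-0.56 ± 0.08, adjusted p = 3.59e-06). SLC16A7, of higher affinity, had 12.4, 12.3 and 11.7 CPM on smooth and 27.8, 23.7 and 15.8 CPM on fractal surfaces with THP-1 cells (0.90 ± 0.15, adjusted p = 0.000119), and it rose with cytokines on fractal surfaces, from 14.8 ± 1.63 to 25.9 ± 2.13 CPM (SD, n = 3; 0.81 ± 0.15). The THP-1 effect on SLC16A7 differed between the surfaces (1.01 ± 0.22, adjusted p = 0.00207).

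In the small classes of vitamins, lipids and lysosomal export, SLC46A3, a lysosomal carrier, rose with cytokines, from 5.46, 4.49 and 4.13 to 14.9, 13.2 and 17.1 CPM on smooth (1.68 ± 0.18, adjusted p = 6.16e-08) and from 4.47, 5.49 and 4.54 to 9.44, 7.67 and 8.20 CPM on fractal surfaces (0.80 ± 0.18, adjusted p = 0.00137), and was lower on fractal than on smooth surfaces under cytokines (-0.84 ± 0.17). SLC48A1, which moves heme out of lysosomes and is known from macrophages, rose with THP-1 cells on smooth surfaces. It went from 14.6 ± 0.405 to 27 ± 0.398 CPM (SD, n = 3), a log2 fold change of 0.89 ± 0.16. The summed macrophage markers moved with it, and their part was not tested. SLC27A1, which helps take up fatty acids, rose with THP-1 cells, by 0.53 ± 0.12 on smooth and 0.60 ± 0.12 on fractal surfaces. The choline carrier SLC44A1 rose with cytokines on smooth surfaces, from 98.2 ± 6.06 to 128 ± 4.76 CPM (0.38 ± 0.08), and the thiamine carrier SLC19A2 fell with THP-1 cells on fractal surfaces, from 17.8 ± 2.31 to 12 ± 1.37 CPM (-0.56 ± 0.13).

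Another class of 10 carriers brings nucleotide sugars into the Golgi and endoplasmic reticulum for glycosylation. Cytokines raised 2 and lowered none on each surface, against 13.2 and 13% of all genes higher and 12.4 and 12.9% lower. THP-1 cells raised 1 and lowered 1 on smooth, against 17.3% of all genes higher and 17.7% lower. On fractal they raised 2 and lowered 2, against 25% of all genes higher and 25.5% lower. SLC35B2, which carries the sulfate donor for heparan sulfate, was at 80.2 ± 2.96, 82.1 ± 5.75 and 84.1 ± 1.71 CPM on smooth surfaces in controls, with cytokines and with THP-1 cells (SD, n = 3), and passed none of these tests.

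Mitochondrial carriers, the largest class with 34 genes, had 12 that fell and 4 that rose with THP-1 cells on fractal surfaces, where 25.5% of all genes fell and 25% rose, and 4 that fell and 3 that rose on smooth, where 17.7% and 17.3% of all genes did. Cytokines lowered 2 and raised 3 on smooth and lowered 4 and raised 5 on fractal surfaces. SLC25A5, which exchanges ADP and ATP and is the form of growing cells, fell in all 4 treatment comparisons. It had 175, 181 and 177 CPM in smooth and 190.2, 193 and 201 CPM in fractal controls. Under cytokines it had 123, 140.3 and 138 and 122, 109 and 134 CPM, and with THP-1 cells 136, 129 and 128 and 101, 97.5 and 125 CPM, smooth before fractal. Controls and treated libraries did not overlap on either surface, and the log2 fold changes ran from -0.41 ± 0.09 to -0.85 ± 0.09.

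Its close relative SLC25A6 had 395 ± 15.4 and 419.5 ± 4.83 CPM in smooth and fractal controls, and 329 ± 3.02 and 392 ± 55 CPM with THP-1 cells (SD, n = 3), and did not pass the test with cytokines on either surface. These 2 genes and their processed copies are related in sequence, and SLC25A5 has an antisense gene. How reads were split among them was not tested. The pyrimidine nucleotide carriers SLC25A33 and SLC25A36 went apart: on fractal surfaces with THP-1 cells SLC25A33 fell from 6.48, 8.54 and 6.92 to 4.69, 3.07 and 1.94 CPM (-1.15 ± 0.27, adjusted p = 0.000917), and SLC25A36 rose from 85.9, 88.6 and 79 to 137, 139 and 132 CPM (0.69 ± 0.12, adjusted p = 2.94e-05). On smooth surfaces SLC25A36 had 87.3, 74.3 and 87.4 CPM with THP-1 cells, below all fractal ones (0.71 ± 0.12 for fractal against smooth). SLC25A29, a carrier of basic amino acids, rose with THP-1 cells on both surfaces (0.77 ± 0.13 and 0.86 ± 0.13).

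Of 23 genes whose substrate is not settled, SLC22A17 rose furthest under cytokines. It is described as a receptor for lipocalin-2, an iron-siderophore binding protein. It had 3.46, 5.18 and 4.42 CPM in smooth and 4.82, 4.64 and 4.42 CPM in fractal controls. Under cytokines it had 20.3, 14.2 and 22.3 CPM on smooth and 16.5, 22.2 and 14.5 CPM on fractal surfaces (2.12 ± 0.21 and 1.94 ± 0.21; adjusted p = 2.42e-08 and 9.87e-08). Cells with THP-1 macrophages had 9.996, 9.56 and 9.38 CPM on smooth and 20.04, 21.7 and 32 CPM on fractal surfaces (1.15 ± 0.22 and 2.40 ± 0.21). All treated libraries lay above all controls, and the THP-1 effect differed between the surfaces (1.25 ± 0.30, adjusted p = 0.00534). SLC35F5 rose with THP-1 cells, from 116, 123 and 114 to 269, 279 and 259 CPM on smooth (1.19 ± 0.09) and from 100.2, 99.2 and 101 to 209, 205 and 203 CPM on fractal surfaces (1.04 ± 0.09), and did not rise with cytokines.

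The plot of effects on both surfaces sets these results side by side. Under cytokines the 10 called interactions fall on both sides of the line of equal effect. SLC14A1 and SLC1A5 fell on smooth surfaces and did not pass the test on fractal. SLC7A2 rose on smooth and did not pass the test on fractal. SLC2A6 rose on smooth and fell on fractal, where the call depended on single libraries. SLC39A14 had a larger rise on smooth, and SLC12A8 had a larger rise on fractal. These 6 kept their interaction call under all alternatives tried, and SLC1A4, SLC7A1 and SLC11A2 did not. With THP-1 cells, genes such as SLC22A17, SLC6A6, SLC12A8, SLC25A37, SLC25A36, SLC7A2 and SLC16A7 lay higher on fractal, and SLC20A1, SLC29A1 and SLC10A3 lower. SLC10A3 had 22.7, 18.8 and 21.8 CPM on smooth and 13.5, 14.3 and 16.8 CPM on fractal surfaces with THP-1 cells, and its interaction was -0.70 ± 0.18 (adjusted p = 0.00827).

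**Figure D4:**
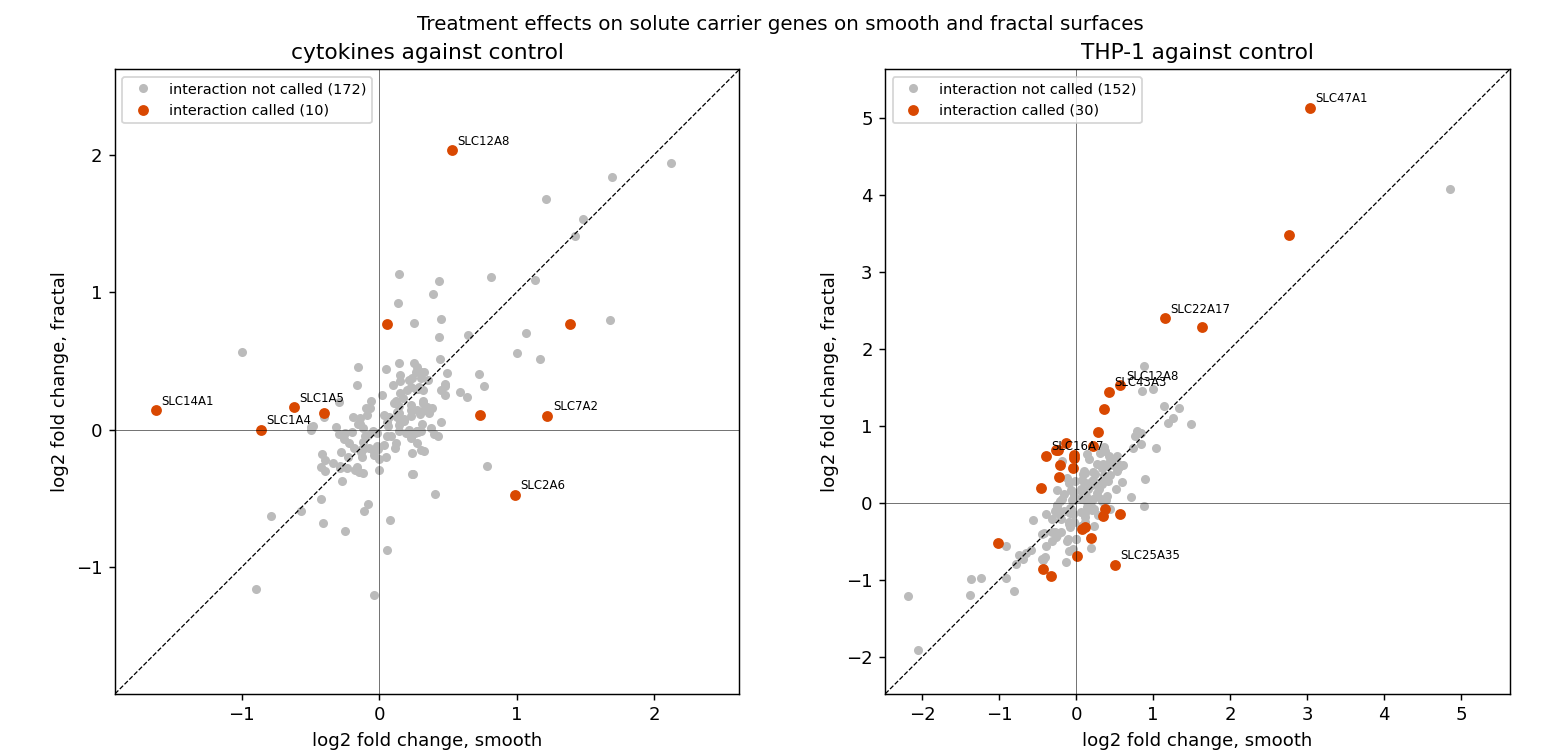
Log2 fold change against control on smooth (horizontal axis) and fractal (vertical axis) surfaces for the 182 solute carrier genes, with cytokines at left and THP-1 cells at right; the dashed line marks equal effects, and orange points are the 10 and 30 genes whose interaction was called, the 6 with the largest difference being named. SLC12A8 lies above the line in the cytokine panel at 0.53 and 2.03, and SLC7A2 and SLC2A6 lie below it.

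The genes left out by name and other genes that transporters rely on were read from the same fit. Of all genes, 35.1% were called in either direction with THP-1 cells on smooth and 50.5% on fractal surfaces, and 25.7 and 25.8% with cytokines. Of the 6 left-out carriers, THP-1 cells raised 2 and lowered 3 on smooth and raised 1 and lowered 3 on fractal surfaces; the 3 lowered on both include SLC3A2, the heavy chain that SLC7A7 and other light chains need at the cell surface. Of 7 chaperones and pump subunits, THP-1 cells lowered 1 on smooth, and raised 1 and lowered 3 on fractal surfaces, and cytokines raised 2 and lowered 1 on smooth and raised 3 and lowered 2 on fractal. Of 17 further carriers without an SLC symbol of this form, cytokines raised 6 on smooth, and raised 3 and lowered 2 on fractal, while THP-1 cells raised 9 and lowered 1 on smooth and raised 8 and lowered 5 on fractal.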

How the data were processed

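RNA of 18 libraries from PODO/TERT256 podocytes, 3 for each of 6 groups, was analysed. The authors deposited raw counts per gene, whole numbers for 58735 Ensembl genes. Per the submitters' processing notes CASAVA, HISAT2 2.0.5 and featureCounts 1.5.0-p3 were used with GRCh38; what each did and the annotation are not given in the sources used here. Positions and exon lengths came from GENCODE 29, in which 4 of the 182 genes carry an older symbol. The libraries are not strand-specific, per the labels' protocols.

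Counts were tested with edgeR 4.0.16 in R 4.3.3 (TMM, filterByExpr with min.count 10 and min.total.count 15, robust quasi-likelihood fit, 1 mean per group) on all 16129 genes that passed. The 6 groups shared 1 estimate of the spread, a biological coefficient of variation of 12.2% on 12 residual degrees of freedom, and p-values were adjusted by Benjamini-Hochberg within each comparison over all genes, with a threshold of 0.05. An interaction is the treatment effect on fractal minus that on smooth. Values after ± are standard errors for log2 fold changes and SDs over 3 libraries for levels. Totals of 11488204 to 21264180 counts per library set the precision. The fit was tested on simulated counts.

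The members, substrate classes and marker lists were chosen with earlier results of these data known. Named genes were up to 10 in each direction by fold change per comparison with at least 5 CPM, the 3 most abundant of each class and a list of carriers known from inflammation, metals and amino acids. Alternatives were DESeq2 1.42.0, RLE scaling, no filter, the compared groups alone, a replicate block, each library left out and the 2 libraries that stand apart left out. A fit with 2 libraries in a group assumes that they vary like the other groups. Some genes are not reported here. Figures were drawn with matplotlib 3.10.9.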

Additional observations from a re-analysis of the deposited data

Results flagged for a closer look

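The effect of cytokines against control differed between the surfaces, by the interaction term of edgeR's quasi-likelihood test, in 9 of the genes named here. The log2 effect on fractal minus that on smooth was positive for SLC14A1 (1.76), SLC12A8 (1.51), SLC1A4 (0.86), SLC1A5 (0.78) and SLC7A1 (0.52). It was negative for SLC2A6 (-1.46), SLC7A2 (-1.12), SLC11A2 (-0.63) and SLC39A14 (-0.62). The calls of SLC12A8, SLC14A1, SLC1A5, SLC2A6, SLC39A14 and SLC7A2 held under every alternative tried. In the cytokine comparison SLC14A1 and SLC12A8 had the largest positive and SLC2A6 and SLC7A2 the largest negative values.

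Other calls of a different effect of cytokines depended on single libraries. SLC11A2 lost its call without smooth control replicates 1 and 2, fractal control replicate 3 and fractal cytokines replicate 3 in turn (adjusted p between 0.0537 and 0.0627). SLC1A4 lost its call without smooth control replicate 1, fractal control replicates 1 and 2, smooth cytokines replicate 3 and fractal cytokines replicates 1 and 3 in turn (adjusted p between 0.0515 and 0.0803). SLC7A1 lost its call without smooth control replicates 1, 2 and 3, fractal control replicates 1, 2 and 3, smooth cytokines replicate 3 and fractal cytokines replicates 1 and 3 in turn (adjusted p between 0.0582 and 0.124).

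The effect of THP-1 cells against control differed between the surfaces, by the interaction term of edgeR's quasi-likelihood test, in 27 of the genes named here. The log2 effect on fractal minus that on smooth was positive for SLC47A1 (2.10), SLC22A17 (1.25), SLC43A3 (1.02), SLC16A7 (1.01), SLC12A8 (0.95), SLC25A36 (0.95), SLC25A37 (0.91), SLC7A2 (0.91), SLC35E2A (0.86), SLC14A1 (0.71), SLC8A1 (0.70), SLC6A6 (0.65), SLC22A5 (0.65), SLC26A11 (0.64), SLC11A2 (0.60), SLC33A1 (0.55), SLC38A1 (0.49) and SLC39A14 (0.48). It was negative for SLC25A22 (-0.71), SLC10A3 (-0.70), SLC20A1 (-0.65), SLC29A1 (-0.62), SLC27A4 (-0.52), SLC35C1 (-0.44), SLC38A5 (-0.43), SLC25A11 (-0.42) and SLC25A5 (-0.42). The calls of SLC10A3, SLC11A2, SLC12A8, SLC16A7, SLC20A1, SLC22A17, SLC25A36, SLC25A37, SLC29A1, SLC39A14, SLC43A3, SLC6A6, SLC7A2 and SLC8A1 held under every alternative tried.

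Other calls of a different effect of THP-1 cells depended on single libraries. SLC14A1 lost its call without smooth control replicate 1 and smooth THP-1 replicate 1 in turn (adjusted p between 0.0575 and 0.0601). SLC22A5 lost its call without smooth control replicates 1 and 2, fractal control replicates 2 and 3, smooth THP-1 replicates 1 and 3 and fractal THP-1 replicates 1 and 2 in turn (adjusted p between 0.0535 and 0.141). SLC25A11 lost its call without smooth control replicates 1 and 3, fractal control replicates 1 and 2 and smooth THP-1 replicate 2 in turn (adjusted p between 0.0557 and 0.0751). SLC25A22 lost its call without smooth control replicate 1, smooth THP-1 replicate 2 and fractal THP-1 replicates 1 and 2 in turn (adjusted p between 0.0574 and 0.0635). SLC25A5 lost its call without smooth control replicates 1 and 3, fractal control replicate 3, smooth THP-1 replicate 1 and fractal THP-1 replicates 1 and 2 in turn (adjusted p between 0.0535 and 0.0655). SLC26A11 lost its call without smooth control replicates 1, 2 and 3, fractal control replicates 1, 2 and 3, smooth THP-1 replicates 1, 2 and 3 and fractal THP-1 replicate 3 in turn (adjusted p between 0.054 and 0.129). SLC27A4 lost its call without smooth control replicates 1 and 2, fractal control replicate 3, smooth THP-1 replicate 1 and fractal THP-1 replicates 1 and 2 in turn (adjusted p between 0.0526 and 0.0742). SLC33A1 lost its call without smooth control replicates 1, 2 and 3, fractal control replicates 2 and 3, smooth THP-1 replicates 2 and 3 and fractal THP-1 replicate 2 in turn (adjusted p between 0.0583 and 0.0919). SLC35C1 lost its call without smooth control replicates 1 and 2, fractal control replicates 1, 2 and 3 and smooth THP-1 replicates 1 and 2 in turn (adjusted p between 0.0618 and 0.113). SLC35E2A lost its call without smooth control replicate 2 (adjusted p = 0.0552). SLC38A1 lost its call without smooth THP-1 replicate 3 (adjusted p = 0.0543). SLC38A5 lost its call without smooth control replicate 1 and fractal control replicates 1 and 3 in turn (adjusted p between 0.0504 and 0.0717). SLC47A1 lost its call without smooth control replicates 1 and 3, fractal control replicates 2 and 3 and smooth THP-1 replicates 1 and 2 in turn (adjusted p between 0.0565 and 0.105).

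The macrophage markers summed to 50.5 to 58.0 CPM on smooth and 25.1 to 26.6 CPM on fractal surfaces with THP-1 cells, and their part in the differences with THP-1 cells was not tested.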

How the results depend on the processing

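Of the counts of solute carrier genes called, those for treatment against control kept within 1.5 times their value under DESeq2, RLE scaling, no filter on low counts, a fit of the compared groups alone and without the 2 libraries that stand apart. Others moved. For fractal against smooth controls, 4 became 8 with no filter, 43 with the compared groups alone and 20 without the 2 libraries that stand apart, and leaving out 1 library gave 0 to 2 for the 6 control libraries. With THP-1 cells the 53 for fractal against smooth became 23, and the 75 for THP-1 cells against cytokines on fractal became 48, with the compared groups alone. The 10 cytokine interactions became 17 with DESeq2, 18 with no filter, 20 with the groups of the comparison alone and 28 without the 2 libraries that stand apart, and 6 to 15 when 1 library was left out. The 30 THP-1 interactions became 54 without the 2 libraries that stand apart and 19 to 47 when 1 library was left out. The cause of these moves was not tested.

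Over single named genes, 6782 values under an alternative kept their direction and side of the threshold, 618 lost and 417 gained the call, and 6 changed sign and passed the test with the new sign. Those 6 came without fractal THP-1 replicate 3 and without both libraries that stand apart: with THP-1 cells against control on fractal surfaces SLC52A2 was then -0.2459 and -0.2458, and against cytokines SLC25A3 was -0.1645 and -0.1648 and SLC38A10 -0.2042 and -0.2046. Over the other single libraries left out these values reached 0.1486, 0.2252 and 0.1306. The labels give every group replicates 1 to 3, but same-numbered libraries did not deviate together: over 45 pairs of groups the correlation ran from -0.089 to 0.064. With a replicate block the counts were 136 for any difference, 58 and 53 for cytokines on smooth and fractal, 73 and 105 for THP-1 cells, 4, 21 and 52 for fractal against smooth in controls, cytokines and THP-1 cells, and 12 and 29 for the interactions. Low levels limit the precision of SLC1A3 and SLC47A1, which lay near 1 CPM or lower outside the THP-1 groups.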

Other observations

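Other short motifs were counted in the same 300-base promoters of 150 of the 182 genes, both strands, as a description. The STAT letters TTCNNNGAA were found in 6.0% of the 150, where 7.88% of all 27305 promoters held them, the AP-1 letters TGANTCA in 4.0% against 7.76%, and the NF-kB motif in 2.0% against 1.92%. The E-box CACGTG, which MYC, TFEB and related factors bind, was found in 20 of the 150 (13.3%) against 7.43%, and the cyclic AMP response element TGACGTCA in 6 (4.0%) against 1.98%. These shares were not tested.

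Of 43 protein-coding SLC genes below the count rule that could be tested, 26 differed among the 6 groups by edgeR's quasi-likelihood test, a share close to the 59.1% of all 16129 genes tested.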
